A study of Mus musculus with 12 samples.

Results

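The 10 genes described here belong to the bone-forming cell and were followed through developing mouse palate: the transcription factors Runx2 and Sp7, the matrix and enzyme genes Alpl, Col1a1 and Ifitm5, the acidic matrix protein genes Ibsp, Spp1 and Dmp1, the osteocalcin gene Bglap, and the peptidase gene Phex. They were chosen by symbol, as the rows whose Ensembl gene ID maps to these names, and all 10 were found among the 19083 genes of the expression table. Of the 10, 9 passed the filter on low values (at least 1 FPKM in at least 3 samples), as did 14107 genes in all, and Bglap did not.

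RNA was sequenced from micro-dissected palatal shelves of 12 single C57BL/6 embryos whose age label is embryonic day 14 (E14). Pax9-/- embryos and littermate controls either had the treatment label Control (called untreated here) or came from Pax9+/- dams injected with WAY-262611 through the tail vein each day, from E10.5 until E14. Each of the 4 groups held 3 embryos. The untreated controls were 1 Pax9+/+ and 2 Pax9+/- embryos, and the treated controls were 2 Pax9+/+ and 1 Pax9+/- embryo, so that "control" mixes both genotypes. Pax9 encodes a transcription factor needed for palate formation, and WAY-262611 is a small molecule that relieves Dkk1 inhibition of Wnt signalling. No vehicle is named for the untreated litters.

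The palate forms as mesenchymal shelves that grow, lift and fuse, and part of that mesenchyme then condenses and turns directly into the bone of the hard palate. RUNX2 commits mesenchymal cells to the osteoblast fate and SP7 acts downstream of it. The committed cells lay down type I collagen, carry tissue-nonspecific alkaline phosphatase on their surface, and later secrete acidic phosphoproteins that bind mineral. DMP1 and PHEX are best known from cells being buried in matrix as osteocytes, and osteocalcin is a late product of mature osteoblasts.

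The 12 libraries fell into sets with different column-name prefixes, and these sets stood apart before any comparison of genotype or treatment. The smaller set, called the 4-library set here, holds 1 library per group, from 1 untreated and 1 treated litter, and both of its controls are Pax9+/+. The larger, called the 8-library set, holds 2 per group, from another untreated and another treated litter. Litters were taken from the number that embryos share in their names, since no label calls it a litter. The first principal component, with 52.5% of the variance, separated the sets. Each litter lies in 1 set and received 1 treatment, so set and litter cannot be told apart, nor can treatment and litter within a set. The extraction protocol names E13.5 beside E14, while the age label of all 12 samples is E14. Depth, as whole reads recovered from the FPKM values, was 36.9 to 49.9 M per library, and the ranges of the sets overlapped. Pax9 itself followed the labelled genotype, at 4.75 to 7.30 FPKM in the 6 mutants, 20.3 to 22.8 FPKM in the 3 heterozygous embryos and 28.5 to 37.5 FPKM in the 3 wild-type embryos.

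The genes Dmp1, Ibsp and Spp1 are neighbours on chromosome 5 (build GRCm38), in a run of 5 genes for acidic bone and tooth proteins ordered Dspp, Dmp1, Ibsp, Mepe and Spp1, all on the plus strand and spanning 270.3 kb. Dmp1 lies at chr5:104202613-104214102, Ibsp at chr5:104299171-104311469 and Spp1 at chr5:104435118-104441050. Promoter windows of 300 bases (250 before and 50 after the annotated start; RefSeq, GRCm38.p6) were available for 8 of the 10 genes, as 11 windows. A window each of Dmp1, Ibsp and Spp1, whose levels differed most between the sets of libraries, is shown 5′ to 3′ on the gene's strand. So is that of Bglap, which stayed near the floor. Capitals mark the letters TGTGGT on either strand (ACCACA when read on the gene's strand), which are the core that RUNX proteins bind, and TATAAA on the gene's strand.
Ibsp, chr5:104299037-104299336, plus strand: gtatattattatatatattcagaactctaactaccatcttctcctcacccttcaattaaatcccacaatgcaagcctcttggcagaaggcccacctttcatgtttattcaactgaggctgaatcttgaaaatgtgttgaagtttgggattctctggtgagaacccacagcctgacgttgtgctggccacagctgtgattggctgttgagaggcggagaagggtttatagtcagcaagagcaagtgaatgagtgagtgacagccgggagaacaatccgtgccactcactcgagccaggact
Dmp1, chr5:104202367-104202666, plus strand: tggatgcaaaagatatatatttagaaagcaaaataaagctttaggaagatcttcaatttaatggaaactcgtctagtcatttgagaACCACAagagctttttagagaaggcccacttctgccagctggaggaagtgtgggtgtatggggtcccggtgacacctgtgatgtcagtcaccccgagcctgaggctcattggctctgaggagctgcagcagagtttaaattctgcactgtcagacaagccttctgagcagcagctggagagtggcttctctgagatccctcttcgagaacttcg
Spp1, chr5:104434861-104435160, plus strand: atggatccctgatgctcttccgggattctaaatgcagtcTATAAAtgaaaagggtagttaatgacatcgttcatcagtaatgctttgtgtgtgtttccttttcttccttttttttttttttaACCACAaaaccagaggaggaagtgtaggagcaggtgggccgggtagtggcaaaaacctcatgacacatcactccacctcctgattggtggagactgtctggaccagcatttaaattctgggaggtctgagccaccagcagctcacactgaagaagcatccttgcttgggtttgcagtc
Bglap, chr3:88384417-88384716, minus strand: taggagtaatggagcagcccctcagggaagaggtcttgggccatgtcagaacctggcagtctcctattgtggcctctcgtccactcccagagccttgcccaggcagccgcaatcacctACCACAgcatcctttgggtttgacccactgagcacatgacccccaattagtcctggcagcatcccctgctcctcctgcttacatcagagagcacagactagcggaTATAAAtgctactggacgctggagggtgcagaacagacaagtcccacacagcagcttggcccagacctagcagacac
The window of Dmp1 that is shown holds 1 RUNX core, with its first base at position -164 from the start, that of Spp1 holds 1 at -128, and that of Bglap holds 1 at -132. Dmp1 and Spp1 each have another window, not shown, with no RUNX core. The Ibsp window holds neither set of letters. TATAAA begins at position -27 from the start of Bglap and at -211 from that of Spp1. Over all the genes' windows, 4 of 11 hold the RUNX core, against 16.8% of 32851 mouse promoter windows of the same length, and 2 of 11 hold TATAAA on the gene's strand, against 8.32%. The remaining window with the core is that of Runx2 itself, which holds it 3 times. These are letter matches in a fixed window and no measure of binding.

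Of the bone genes tested, all except Runx2 differed far more between the sets than between genotypes or treatments. All 9 genes tested were higher in the 8-library set than in the 4-library set, from 1.27-fold for Runx2 to 44.4-fold for Ibsp and 47.2-fold for Dmp1 as ratios of mean FPKM. Dmp1 stayed below 1 FPKM in the 4-library set. It passed the filter only through the set in which it is high, so its place among the genes tested depends on that set. Sp7, Alpl and Col1a1 lay 2.60- to 2.86-fold apart, Phex and Ifitm5 5.07- and 7.68-fold, and the acidic matrix protein genes 13.2-fold (Spp1) or more. FPKM ranges of the 12 libraries did not overlap between sets for 8 of the 9 genes tested, and Runx2 was the exception. Those of Bglap did not overlap either, but its recovered reads met, at 4 in a library of each set. Among all genes tested, 11.7% lay wholly higher in the 8-library set and 10.3% wholly lower.

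**Figure D1:**
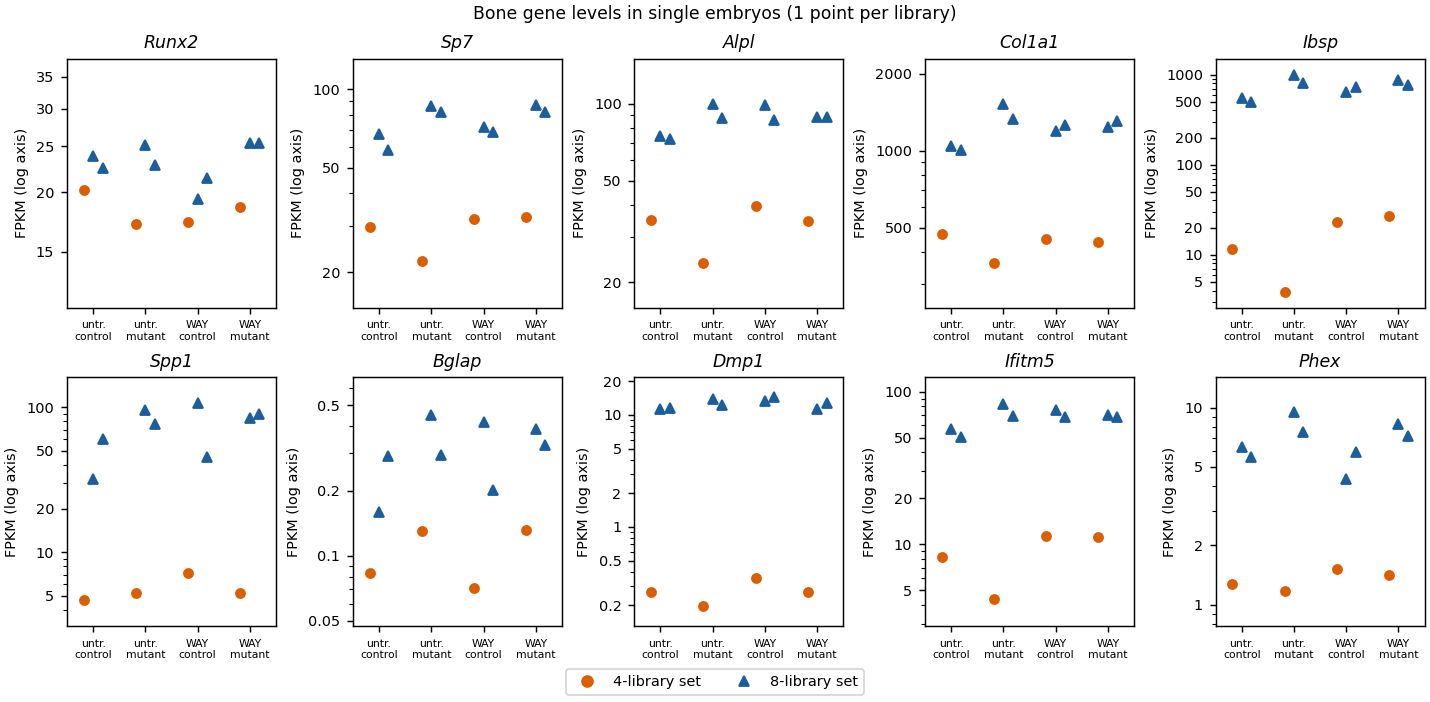
FPKM of each of the 10 genes (log axis, a separate scale per panel) in the 4 groups, 1 point per embryo, with circles for the 4-library set and triangles for the 8-library set (untr., untreated). Circles lie below triangles in every group of every panel, by the widest margin for Ibsp and Dmp1 and by the narrowest for Runx2.

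Runx2, the commitment factor (chr17:44495987-44814797, minus strand), was already well expressed in the 4-library set. Its level there was 17.2 FPKM in the untreated mutant, 20.2 in the untreated control, 18.6 in the treated mutant and 17.3 in the treated control. In the 8-library set it ran from 19.4 through a median of 23.3 to 25.4 FPKM. The treated control at 19.4 lay below the highest library of the smaller set, so the ranges met. The log2 difference was 0.33 ± 0.04 (SE; limma, adjusted p = 0.00014). Runx2 overlaps the antisense gene Runx2os1 and the gene Supt3 on the other strand, both in the table, and whether reads were counted by strand is not given in the sources used here.

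Sp7, the zinc-finger factor downstream of RUNX2 (chr15:102356606-102367182), followed a different pattern. In the 4-library set it stood at 22.0 FPKM in the untreated mutant, 29.7 in the untreated control, 32.4 in the treated mutant and 31.9 in the treated control. In the 8-library set its lowest library had 58.5, the median was 76.8 and the highest 86.8 FPKM. No library of one set entered the range of the other, and the log2 difference was 1.37 ± 0.09 (limma, adjusted p = 1.5e-06). The ratio of Sp7 to Runx2 in FPKM was 1.28 to 1.84 in the libraries of the 4-library set and 2.60 to 3.71 in those of the 8-library set.

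Alpl, the alkaline phosphatase that clears pyrophosphate from matrix, and Col1a1, the main chain of type I collagen, shifted by about the same factor as Sp7. Alpl ran from 23.9 to 39.8 FPKM in the 4-library set and from 72.4 to 99.5 in the 8-library set. Col1a1 ran from 365 to 472 FPKM and from 1008 to 1519. The log2 differences were 1.39 ± 0.10 for Alpl and 1.51 ± 0.09 for Col1a1 (limma, adjusted p = 1.6e-06 and 5.4e-07). In both genes the untreated mutant was the lowest library of the 4-library set and an untreated mutant the highest of the 8-library set.

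Ifitm5, a small membrane protein of mineralising osteoblasts, was present in every library. It stood at 4.38 FPKM in the untreated mutant of the 4-library set, 8.30 in the untreated control, 11.2 in the treated mutant and 11.3 in the treated control. In the 8-library set it ran from 50.2 through a median of 68.7 to 82.5 FPKM, with a log2 difference of 2.94 ± 0.17 (limma, adjusted p = 5.4e-07).

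Ibsp, which encodes bone sialoprotein, had the largest difference of all 14107 genes tested on the log2(FPKM + 0.5) scale, while Dmp1 had the larger ratio of means. It was at 3.88 FPKM (401 reads) in the untreated mutant of the 4-library set, 11.6 in the untreated control, 27.0 in the treated mutant and 23.0 in the treated control. In the 8-library set it ran from 498 through a median of 742 to 990 FPKM. Even the highest library of the smaller set was far below the lowest of the larger, and the log2 difference was 5.71 ± 0.34 (limma, adjusted p = 6e-07). The spread also differed: the SD was 64.6% of the mean in the 4-library set and 22.5% in the 8-library set.

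Dmp1, the acidic phosphoprotein of cells turning into osteocytes, was close to the floor in one set and plainly present in the other. The libraries of the 4-library set had 27, 28, 27 and 44 reads, or 0.196 to 0.349 FPKM. Those of the 8-library set had 1179 to 1807 reads, or 11.4 to 14.4 FPKM. Within the 8-library set it was, with Runx2, the steadiest of the 10 genes, with an SD of 9.19% of the mean. Its log2 difference of 4.09 ± 0.05 (limma, adjusted p = 1.1e-11) ranked 4 of all genes tested, and the pseudocount of 0.5 FPKM makes it smaller than the ratio of means.

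Spp1, which encodes osteopontin, stood at 4.64 to 7.18 FPKM in the 4-library set and at 31.9 to 107 FPKM in the 8-library set. Both ends of the 8-library range were control embryos, the lowest untreated and the highest treated, and it was the most variable of the genes tested there. The log2 difference was 3.53 ± 0.20 (limma, adjusted p = 5.4e-07), which ranked 6 of all genes tested. Of the neighbours on chromosome 5, Mepe had 0 to 2 reads per library in the 4-library set and 39 to 84 in the 8-library set, and Dspp had 0 to 2 and 7 to 30. In each of the 5 genes every library of the larger set thus lay above every library of the smaller set, although Mepe and Dspp were too low in reads to be tested in the main fit.

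Phex, the membrane peptidase whose loss causes phosphate wasting, ran from 1.17 to 1.52 FPKM in the 4-library set and from 4.34 to 9.47 in the 8-library set, a log2 difference of 1.96 ± 0.12 (limma, adjusted p = 6.9e-07). Bglap, in contrast to the other late genes, was at the floor everywhere, with 2 to 4 reads per library in the 4-library set and 4 to 13 in the 8-library set (0.0708 to 0.132 and 0.160 to 0.448 FPKM). Bglap2, a near-identical neighbouring copy, had 0 to 12 reads, so how reads were split between the copies makes the Bglap level uncertain. Transcripts of mineral-binding proteins were thus abundant in the 8-library set while few reads were assigned to Bglap, and the true osteocalcin transcript level cannot be read from these values.

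In the fit over all genes, 51.2% of the 14107 genes differed between sets (adjusted p below 0.05), 23.7% higher and 27.5% lower in the 8-library set, so a call alone says little about a bone gene. The size of the difference was less common: 8 of the 9 genes tested ranked from 1 (Ibsp) to 137 (Sp7) by rise among all genes. The median of the 9 was 1.96 on the log2 scale against -0.02 for all genes. These ranks and this median include Dmp1, which passed the filter only through the 8-library set. The 10 genes were chosen with earlier results of these data known. The p-values rest on litter mates counted as separate embryos with an estimated litter correlation of -0.127. This negative value, estimated from 4 litters, makes no allowance for likeness within litters. With no litter correlation fewer genes passed, 6179 in place of 7216. With the litter correlation set to 0.5, 1913 genes passed, Runx2 was lost (adjusted p = 0.052) and the other 8 bone genes were kept. With litters as the unit there are 2 against 2, and an exact two-sided permutation test gave 0.333 for each gene, the smallest p it allows. Fewer bone-forming cells and less bone RNA per cell cannot be told apart in such bulk tissue.

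Other genes of the bone programme, listed by role, moved in the same comparison to different degrees. Of 16 commitment factors and regulators, 6 were higher and 4 lower in the 8-library set, and their median difference was 0.01. Ihh, a hedgehog ligand of bone and cartilage (log2 difference 1.11 ± 0.09), Dlx3, a homeobox factor (0.94 ± 0.06), and the FGF receptor gene Fgfr2 (0.47 ± 0.04) were the furthest up, and Sox9, the cartilage factor, was the furthest down (-0.65 ± 0.04). Matrix and collagen-processing genes moved nearly as a block: 15 of the 16 tested were higher and none was lower, the exception being the procollagen protease gene Bmp1. Omd, encoding osteomodulin (1.60 ± 0.13), Kazald1 (1.37 ± 0.05) and Creb3l1, a collagen secretion factor (1.26 ± 0.07), led them, and Col1a2, the partner chain of Col1a1, differed by 1.03 ± 0.05.

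Among 10 tested genes of mineralisation and osteocytes, 7 were higher and none was lower. Phospho1, a phosphatase of matrix vesicles (2.86 ± 0.13), Panx3, a channel of osteoblasts and chondrocytes (2.34 ± 0.18), and Smpd3, a sphingomyelinase (2.03 ± 0.13), differed as strongly as Ifitm5 and Phex. The phosphate carriers Slc20a1 and Slc20a2 and the pyrophosphate exporter Ank did not pass. Sost and Fgf23, products of mature osteocytes, stayed below 1 FPKM in all 12 libraries. Of 8 receptors and coupling factors, 4 were higher, led by Csf1 (0.74 ± 0.04), a growth factor for osteoclast precursors, and 1, the cadherin gene Cdh11, was lower (-0.12 ± 0.03).

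**Figure D2:**
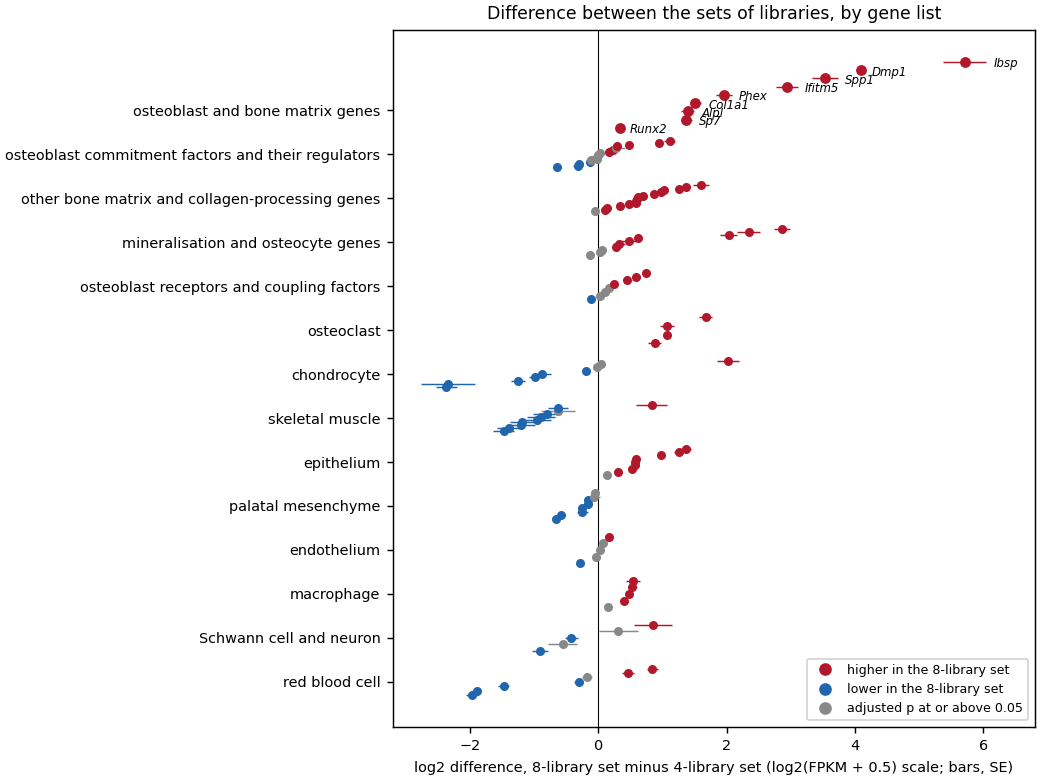
Log2 difference between sets (8-library minus 4-library; bars, SE) for each tested gene of the bone lists and of the marker lists of other cell types, with red for higher, blue for lower and grey for genes that did not pass. The osteoblast and bone matrix genes extend to 5.71 (Ibsp), and the osteoclast, epithelium and macrophage lists lie to the right of 0 while most chondrocyte and muscle genes lie to the left.

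Markers of other cell types and of blood moved with the set as well, and their part in the bone gene result was not tested. All 4 osteoclast genes that passed the filter were higher in the 8-library set (Acp5 1.67, Ctsk 1.07, Atp6v0d2 1.07, Mmp9 0.88 on the log2 scale), and the summed FPKM of the list of 8 was 33.5 to 45.5 in the 4-library set and 76.4 to 95.9 in the 8-library set. Atp6v0d2, at 0.206 to 0.309 FPKM in the 4-library set, passed the filter only through the 8-library set. Calcr, Oscar, Dcstamp and Ocstamp stayed below 1 FPKM everywhere. Of 9 tested chondrocyte genes, 6 were lower, with Col9a1 at -2.37 and Col2a1 at -1.25, and Col11a2 was higher at 2.02. The chondrocyte sum was 219 to 286 against 137 to 208 FPKM. Epithelial genes were higher in 8 of 9 cases, with sums of 255 to 385 and 543 to 815 FPKM. Skeletal muscle genes were lower in 8 of 10 cases, with overlapping sums of 235 to 826 and 191 to 411 FPKM, and palatal mesenchyme genes were lower in 6 of 8, with sums of 556 to 719 and 418 to 547 FPKM. Macrophage genes were higher in 4 of 5 cases, at 23.4 to 26.7 and 30.4 to 36.0 FPKM, and endothelial sums were alike at 92.1 to 95.4 and 88.7 to 98.7 FPKM. Of the macrophage genes called, Ptprc likewise passed the filter only through the 8-library set. The Schwann cell and neuron sums spread widely in both sets, at 27.7 to 95.2 and 21.0 to 89.6 FPKM.

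The globin genes differed in both directions. The embryonic beta-like globin gene Hbb-y stood at 701 to 897 FPKM in the 4-library set and at 163 to 253 in the 8-library set (log2 difference -1.90 ± 0.07), and Hba-x (-1.97 ± 0.10) and Hbb-bh1 (-1.48 ± 0.08) were lower too. The adult genes Hbb-bs (0.84 ± 0.09) and Hbb-bt (0.46 ± 0.09) were higher, whereas the adult alpha globin gene Hba-a1 was lower (-0.31 ± 0.07) and Hba-a2 (-0.18 ± 0.08) did not pass. The summed globin list was 1155 to 1515 FPKM against 713 to 981. All these differences but that of Hba-a2 passed in limma, and their relation to the bone genes was not tested.

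None of the 9 osteoblast and matrix genes tested passed in untreated mutants against controls. With the set of libraries as a term, the count was 0 of 9 in limma, where 0.737% of all genes (104; 28 to 197 with a library left out) were called and 1325 had an unadjusted p below 0.05. Ibsp averaged 597 ± 523 FPKM (SD, n = 3) in untreated mutants and 354 ± 297 in untreated controls, and its log2 difference of 0.02 ± 0.48 shows how little the pooled comparison can resolve. Spp1 had the largest difference, 0.69 ± 0.33 (adjusted p = 0.55), and Col1a1 stood at 0.19 ± 0.14 (adjusted p = 0.77). Over both treatments 0 of 9 passed, where 9.87% of genes were called (1393; 660 to 2103 with a library left out).

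In treated embryos 1 of 9 passed, where 12.8% of genes were called (1807; 206 without treated mutant 2 to 2906 without treated control 3). Runx2 was 25.4, 25.4 and 18.6 FPKM in treated mutants and 19.4, 21.4 and 17.3 in treated controls, higher in the mutants of each set, with a log2 difference of 0.24 ± 0.07 (limma, adjusted p = 0.047). That call was lost with the litter number as a block (adjusted p = 0.063), with a term for heterozygous embryos (0.086) and when any of 9 of the 12 libraries was left out.

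Genes of the further bone lists did separate the genotypes. Bmp2, a bone-inducing ligand, was 9.49 to 11.8 FPKM in the 6 mutants and 7.62 to 9.16 in the 6 controls, and rose by 0.35 ± 0.03 on the log2 scale over both treatments (limma, adjusted p = 0.00034). Sox9 rose by 0.32 ± 0.04 (adjusted p = 0.001), and both also passed in untreated and in treated embryos taken separately. Of the 16 commitment factors, 4 rose over both treatments (Dlx6, Bmp2, Sox9 and Cbfb) and none fell. Of 16 matrix genes, 4 rose (Col1a2, Col5a2, Lox and Ogn) and none fell. Of 10 mineralisation genes, 3 fell (Enpp1, Car2 and Pdpn) and none rose. The Enpp1 call over both treatments was lost in 9 of 19 alternatives (adjusted p up to 0.35), among them the heterozygote term, no set term and 7 single libraries left out. Of 8 receptors and coupling factors only Cdh11 rose. Over both treatments 3.27% of all genes rose and 6.60% fell, so that among those called 33.2% were higher in mutants, and 49.7% with median-ratio scaling of the columns. In treated embryos the shares were 39.2% and 56.5%. Without the set term neither Bmp2 (adjusted p = 0.06) nor Sox9 (0.47) passed. Epithelial markers were lower in mutants, with 6 of 9 called and a median of -0.27, and Osr2, a palatal mesenchyme factor, was higher by 0.93 ± 0.10. Their part in the bone gene differences was not tested.

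Within the 8-library set, where each group had 2 embryos, Sp7 and Ibsp passed as higher in mutants when the treatments were averaged. Neither passed in untreated embryos alone (limma, adjusted p = 0.11 for Sp7 and 0.093 for Ibsp) or in treated embryos alone (0.12 and 0.25). Sp7 was 86.1 and 81.8 FPKM in untreated mutants and 86.8 and 82.0 in treated mutants, and 67.4 and 58.5 in untreated controls and 71.9 and 68.9 in treated controls. The log2 difference of Sp7 was 0.34 ± 0.06 (limma on the 8 libraries, adjusted p = 0.024). Ibsp was 990 and 797 FPKM in untreated mutants and 868 and 761 in treated mutants, and 552 and 498 in untreated controls and 632 and 723 in treated controls. The log2 difference of Ibsp was 0.51 ± 0.09 (limma, adjusted p = 0.033). These were 2 of 9 genes called, both higher, where 3.13% of all genes were called, 1.20% higher and 1.94% lower (442 genes; 103 without untreated control 3 to 3203 without treated control 3).

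The other bone genes of the 8-library set did not pass. Phex was 7.14 to 9.47 FPKM in the 4 mutants and 4.34 to 6.32 in the 4 controls, at 0.51 ± 0.11 (limma, adjusted p = 0.064). Col1a1 stood at 0.26 ± 0.07 (adjusted p = 0.099) and Runx2 at 0.18 ± 0.05 (0.14). Ifitm5 (0.22 ± 0.07, adjusted p = 0.18), Alpl (0.15 ± 0.06, 0.26), Spp1 (0.64 ± 0.29, 0.28) and Dmp1 (-0.01 ± 0.06, 0.95) were further from the threshold. The 9 differences had a median of 0.26, against -0.03 for all genes. Depending on the library left out, 0 to 5 of the 9 were called: none without untreated mutant 2, untreated control 3, treated mutant 2 or treated mutant 3, and 5 without treated control 3. Of the 4 controls in this set, 3 are heterozygous, and both untreated ones are.

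The mineralisation genes of the 8-library set moved in opposite directions in the mutants. Enpp1, which makes the mineralisation inhibitor pyrophosphate, was 2.37 to 2.59 FPKM in the 4 mutants, 6.88 and 5.59 in untreated controls and 4.25 and 3.97 in treated controls, and it fell by 0.91 on the log2 scale (SE 0.08; limma, adjusted p = 0.0019). Ank, which exports pyrophosphate or its precursor, was 8.23 to 8.91 FPKM in mutants and 10.9 to 11.1 in controls, and fell by 0.34 (SE 0.04, adjusted p = 0.0079). Phospho1, which releases phosphate in matrix vesicles, was 53.9 to 59.9 FPKM in mutants and 31.3 to 51.5 in controls, and rose by 0.47 (SE 0.06, adjusted p = 0.0082). Pdpn, a membrane glycoprotein of early osteocytes, fell by 0.32 (SE 0.05, adjusted p = 0.015). Slc20a1, Slc20a2, Smpd3, Fam20c, Panx3 and Car2, the other 6 tested, did not pass. In the 4-library set Enpp1 was 2.12 and 2.81 FPKM in the mutants and 2.60 and 2.24 in the controls, and Ank was 11.2 and 10.4 against 10.1 and 10.9, with no common direction. Phospho1 there was 3.98 and 8.26 against 6.12 and 7.75, also without one, while Pdpn was lower in both mutants, at 17.2 and 17.1 against 20.6 and 22.9. The Enpp1 call in the 8-library set held in all 15 alternatives run, whereas the calls of Ank, Phospho1 and Pdpn were lost in 5, 2 and 7 of 16. The litter block, counted among these, is the same fit as the main one in this set and could not change a call. A heterozygote term was not run for this set, although most of its controls are heterozygous. From the other lists, Bmp2, Sox9, Col1a2 and the parathyroid hormone receptor gene Pth1r rose, and the calls of Bmp2 and Sox9 were lost in 5 and 8 of 16 alternatives. Chondrocyte genes rose beside them, with Acan, Hapln1 and Col11a2 called of 9 tested and all 9 positive. Epithelial genes were lower in these mutants, with Epcam and Esrp1 called of 9 tested, 0 positive and a median of -0.27. The part of either list was not tested.

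**Figure D3:**
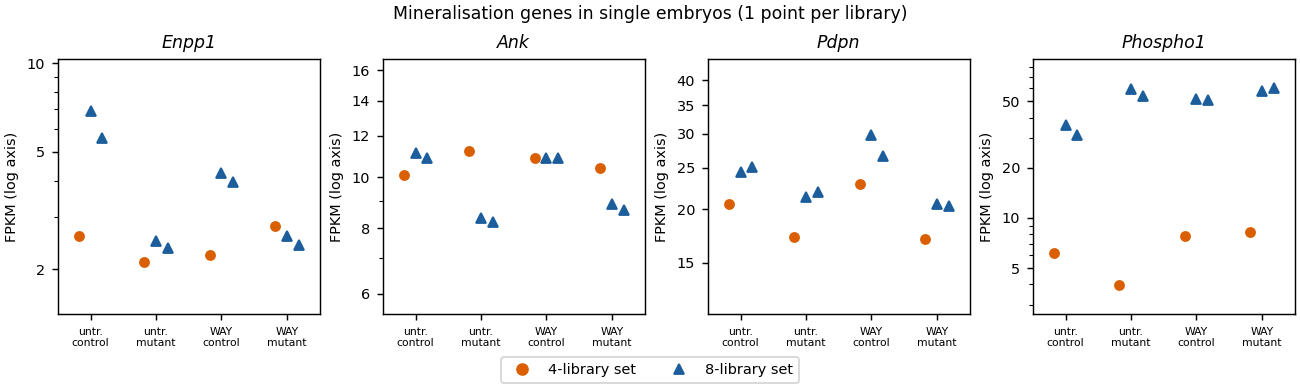
FPKM (log axis, a separate scale per panel) of Enpp1, Ank, Pdpn and Phospho1 in the 4 groups, 1 point per embryo, with circles for the 4-library set and triangles for the 8-library set (untr., untreated). Among the triangles, Enpp1 is 2.37 to 2.59 in mutants and 3.97 to 6.88 in controls, and Phospho1 is 53.9 to 59.9 in mutants and 31.3 to 51.5 in controls.

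The mutant-control difference did not have the same sign in every litter. In the untreated litter of the 8-library set all 9 tested bone genes were higher in the mutants, from 0.04 for Runx2 to 0.76 for Ibsp and 0.96 for Spp1 on the log2 scale. In the untreated litter of the 4-library set, with 1 embryo a side, 1 of 9 was higher, and Ibsp stood at -1.47, Ifitm5 at -0.85 and Alpl at -0.54. In the treated litter of the 8-library set 6 of 9 were higher, and in that of the 4-library set 3 of 9. The libraries of the untreated litter of the 4-library set also differed in other tissue: the skeletal muscle sum was 826 FPKM in the mutant and 235 in the control, the epithelial sum 255 and 385, and the cartilage gene Matn1 2.79 and 11.5. Their part in the bone gene values was not tested. The median of all genes was between -0.04 and -0.02 in each litter.

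**Figure D4:**
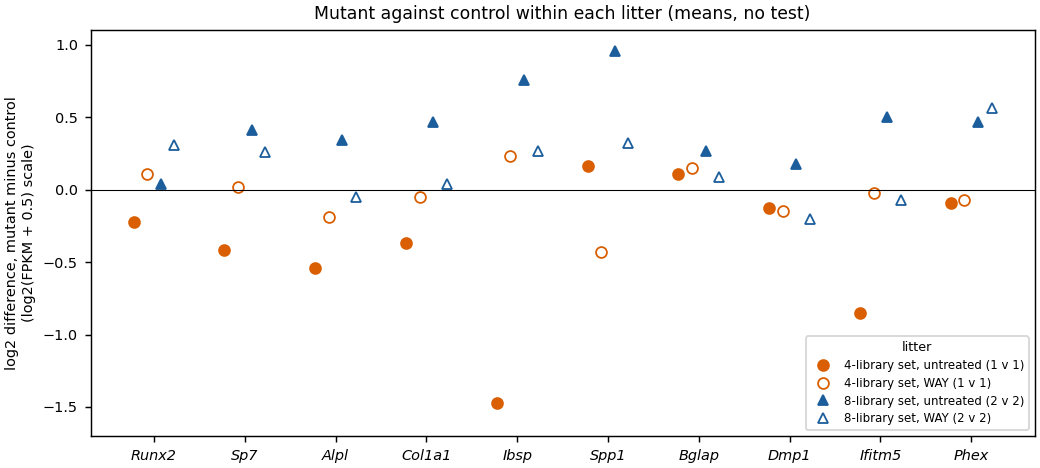
Mutant minus control on the log2(FPKM + 0.5) scale for the 10 bone genes in each litter (circles, the 4-library set; triangles, the 8-library set; filled, untreated; open, treated), as differences of means with no error bar because the 4-library set has 1 embryo a side. The untreated litters lie furthest apart, with Ibsp at -1.47 in the 4-library set and 0.76 in the 8-library set.

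Tested as a genotype-by-set interaction, 0 of 9 bone genes passed in limma, where 0.0354% of genes (5) were called and 651 had an unadjusted p below 0.05. All 9 estimates were positive, that is, higher in mutants relative to controls in the 8-library set than in the 4-library set, with a median of 0.54 against 0 for all genes. Ibsp came closest at 1.13 ± 0.16 (adjusted p = 0.092), followed by Sp7 at 0.54 ± 0.10 (0.22) and Ifitm5 at 0.65 ± 0.13 (0.30). In untreated embryos alone the Ibsp interaction was 2.23 ± 0.22 (adjusted p = 0.047), and in treated embryos alone it was 0.04 ± 0.22 (adjusted p = 1). This split was made after the data had been seen. The untreated value rests on 1 mutant and 1 control library in the 4-library set, the same that differ in muscle, epithelium and Matn1. Its SE comes from the 8-library set and assumes that the lone libraries vary alike. The untreated controls are Pax9+/+ there and Pax9+/- in the 8-library set.

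None of the 9 osteoblast and matrix genes tested passed for WAY-262611. In mutants the count was 0 of 9 and 0% of all genes were called in limma (592 had an unadjusted p below 0.05). Ibsp stood at 0.68 ± 0.48, Ifitm5 at 0.28 ± 0.24 and Sp7 at 0.17 ± 0.13, each with an adjusted p of 1. In controls 0 of 9 passed, where 11.6% of all genes were called (51.7% of them higher, and 39.2% with median-ratio scaling). With a library left out that count of 1634 genes ran from 0 (without untreated control 2 or 3) to 3223 (without treated control 1). Spp1 stood at 0.64 ± 0.29 (adjusted p = 0.15), Dmp1 at 0.22 ± 0.07 (0.074) and Runx2 at -0.19 ± 0.06 (0.066). Of the further bone lists, 6 genes passed in controls (limma), a share near the 11.6% of all genes. By list, 1 of 16 commitment factors was lower, and of 16 matrix genes 1 was higher and 1 lower. Of 10 mineralisation genes 1 was higher, and of 8 receptors and coupling factors 2 were lower. Cbfb, the binding partner of RUNX2, was lower at -0.40 ± 0.05 (adjusted p = 0.011), and the Wnt co-receptor gene Lrp6 at -0.37 ± 0.09 (0.037). Lox, a collagen cross-linking enzyme gene, and Cdh11 were lower, and Kazald1 (0.45 ± 0.07, adjusted p = 0.019) and Pdpn were higher. All 6 calls were lost without the set term and without untreated control 2 or 3. The compound was given to the dam, so each treatment contrast compares 2 litters with 2. The negative litter correlation that was estimated raised the count in controls, which was 375 genes with no litter correlation. With a litter correlation of 0.5 no gene was called in controls. Without untreated mutant 1, 4 bone genes passed in controls (Alpl, Ibsp, Dmp1 and Ifitm5). The genotype-by-treatment interaction called 0 of 9 and 0% of all genes (1646 had an unadjusted p below 0.05), with Runx2 at 0.29 ± 0.10 (adjusted p = 0.40) and Spp1 at -0.62 ± 0.46 (0.57).

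The bone genes varied together to different degrees once set means were removed. Over the 12 samples, the Pearson correlation of a gene with the mean of the other tested bone genes was then 0.93 for Sp7, 0.89 for Col1a1, 0.87 for Alpl, 0.86 for Ifitm5 and 0.83 for Ibsp. It was 0.56 for Phex, 0.49 for Dmp1, 0.43 for Spp1 and 0.25 for Runx2. With set means left in, the values were 0.83 to 0.99, and these include the gap between sets. Samples share litters and sets, and these values describe 12 libraries.

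Outside the bone lists, the genes most like the mean of the 9 over the 12 samples were Slc13a5 (Pearson r = 0.997), Slc8a3, Car3, Trpv4, Pcsk6, Cercam, Clec11a, Sgms2, Itga10 and Entpd3 (0.993). After set means were removed, the closest were Trpv4 (0.962), Cercam (0.958), Col11a2 (0.956), Slc13a5 (0.951) and Car3 (0.951). A correlation above 0.9 was reached by 5.08% of tested genes before removal and by 0.09% after. Slc13a5, which encodes a citrate carrier, was 0.893 to 1.91 FPKM in the 4-library set and 11.9 to 20.5 in the 8-library set, and the collagen gene Col11a2, which is on the chondrocyte list, was 5.85 to 12.6 and 26.8 to 53.7 FPKM.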

How the data were processed

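The table the authors deposited holds FPKM (read fragments divided by gene length and library size), with 1 column per library and 19083 genes. Per the submitters' processing notes, Novoalign 2.08.03, DESeq2 and the build mm10 were used. No source used here gives the annotation, the counting tool, the strand setting or a gene filter. Libraries were oligo(dT)-selected TruSeq libraries from RNeasy micro extracts, per the labels' protocols. Symbols and positions came from GENCODE M21 (GRCm38), matched for 18752 genes.

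FPKM values are not counts, so no count model was run. Within 0.01 read, the values of all 19083 genes were whole multiples of 1 read, and these recovered reads serve as the depth. No libraries of a group were copies of each other (chi-square per degree of freedom 4.19 or more).

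Values were analysed as log2(FPKM + 0.5), which understates changes of low genes, with limma 3.58.1 in R 4.3.3 (trend, Benjamini-Hochberg adjusted p at 0.05 over 14107 genes, errors as SE, all tests two-sided). Genotype comparisons and the genotype-by-treatment interaction used group means and a term for the set of libraries (the prefix of the column name). Treatment and set comparisons added litter as a random effect. Its estimated correlation of -0.127 gave more calls between sets and for WAY-262611 in controls than no correlation did. The genotype-by-set interaction used a mean per group and set, and the 8-library set was also fitted alone. The libraries of the 4-library set give differences with no test. Each group spans both sets and their litters, and both control groups mix Pax9 genotypes. The p-values measure the spread between these samples. Same-numbered embryos deviated together (r = 0.75 and 0.83 for deviations from group means). With set means also removed r was -0.42 and -0.19, but deviations then cancel within each group and set, which pushes r down. These values cannot separate set from litter, because each litter lies in a single set. The scripts were tested on simulated data.

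All 10 bone genes are named. From 4 further bone lists counts are given, with the genes past the threshold led by the 3 largest. Markers of 9 other cell types were listed beside them. The members and lists were chosen with earlier results of these data known. Enpp1, Ank, Phospho1 and Pdpn are shown in more detail because their values had been seen. Alternatives were pseudocounts, filters, median-ratio scaling, a heterozygote term, no set term, the litter as a block, litter correlations of 0 and 0.5, and each library left out. The untreated and treated embryos taken alone were added after the data had been seen. The tools were Python 3.11.15, pandas 2.3.3, numpy 2.4.6 and matplotlib 3.10.9.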

Additional observations from a re-analysis of the deposited data

Results flagged for a closer look

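For Ibsp, the genotype-by-set interaction (the sets differ in the prefix of their column names) in untreated embryos alone was 2.23 ± 0.22 on the log2(FPKM + 0.5) scale (limma, adjusted p = 0.047), 1 of 5 genes called among 14107. Ibsp was 3.88 FPKM in the mutant and 11.6 in the control of the 4-library set, and 990 and 797 in the mutants and 552 and 498 in the controls of the 8-library set. In treated embryos the same interaction was 0.04 ± 0.22 (adjusted p = 1), and averaged over treatments it was 1.13 ± 0.16 (adjusted p = 0.092). This comparison was added after the data had been seen and the averaged one had not passed. It rests on 1 mutant and 1 control library in the 4-library set, which are assumed to vary like those of the 8-library set, and the controls are Pax9+/+ in the former and Pax9+/- in the latter, so a difference between sets is not established. Groups of 3 embryos were not searched for single outlying samples.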

How the results depend on the processing

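The difference between sets called all 9 tested bone genes under every pseudocount, filter, scaling and library left out (9 to 9 called), and Bglap as the tenth without a filter. Bglap had 2 to 13 reads per library, and its reads met between sets. A litter correlation of 0.5 ended the Runx2 call. In the genotype comparisons calls were few and moved with the settings. In treated embryos the 1 call became 0 with no filter, with a heterozygote term, without the set term and with the litter block, and was 0 to 1 with a library left out. The litter block gave 74, 1420 and 1163 genes in untreated embryos, treated embryos and both, and changed no other bone gene call. Within the 8-library set the 2 calls became 1 with no filter and 0 in untreated or treated embryos alone (50 and 285 genes against 442), and 0 to 5 with a library left out. Other ranges with a library left out were 0 to 1 in untreated embryos (Ifitm5 without untreated mutant 1), 0 to 3 over both treatments (Sp7, Ibsp and Ifitm5 or Phex, by library), 0 to 4 for WAY-262611 in controls, and 0 to 0 for the interactions and WAY-262611 in mutants. For WAY-262611 in controls the heterozygote term gave 1 call (Runx2). The genotype-by-set interaction gave 1 call (Ibsp) in untreated embryos alone.

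Counts over all genes moved more. With a library left out they ran from 5738 to 8098 between sets and from 2 to 10 for the genotype-by-set interaction. The heterozygote term gave 40, 647 and 334 genes in place of 104, 1807 and 1393 in untreated embryos, treated embryos and both, and omitting the set gave 13, 63 and 120. A filter at 5 FPKM gave 68 in untreated embryos. For WAY-262611 in controls, no litter correlation gave 375 in place of 1634, and 0.5 or no set term gave 0. The count between sets fell to 1913 with 0.5, and the genotype-by-set count was 9 with no filter and 1 in treated embryos alone, in place of 5.

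Sign changes arose only in bone gene differences that had not passed. With a heterozygote term the untreated differences became -0.04 (Sp7), -0.08 (Alpl), -0.03 (Col1a1), -0.37 (Ibsp), -0.02 (Dmp1), -0.12 (Ifitm5) and -0.02 (Phex), Col1a1 in treated embryos -0.10, and over both treatments Runx2 0.00, Col1a1 -0.07 and Ibsp -0.16. Other pseudocounts gave Ibsp -0.01 untreated, Dmp1 0.00 for WAY-262611 in mutants and Ifitm5 0.01 over both treatments. Median-ratio scaling gave Alpl 0.01 and Ifitm5 0.03 over both, and Dmp1 0.02 in the 8-library set. Phex for WAY-262611 in mutants was 0.02 without the set term and with a correlation of 0.5. Dmp1 in the 8-library set was 0.18 in untreated embryos. In treated embryos alone Dmp1 and Ifitm5 had interactions with set of -0.05 and -0.05, and Alpl and Ifitm5 were -0.05 and -0.07 in the 8-library set. The cause was not tested.

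With a library left out, untreated differences ranged from -0.10 to 0.30 (Alpl), -0.01 to 0.16 (Dmp1), -0.41 to 0.89 (Ibsp), -0.20 to 0.50 (Ifitm5) and -0.10 to 0.02 (Runx2). Treated ones ranged from -0.02 to 0.05 (Col1a1), -0.11 to 0.64 (Ibsp), -0.22 to 0.09 (Ifitm5) and -0.32 to 0.34 (Spp1). Over both they ranged from -0.10 to 0.10 (Alpl), -0.08 to 0.57 (Ibsp) and -0.12 to 0.23 (Ifitm5), and in the 8-library set from -0.05 to 0.04 (Dmp1). Interactions with treatment ranged from -0.39 to 0.00 (Alpl), -0.63 to 0.67 (Ibsp), -0.55 to 0.15 (Ifitm5), -0.14 to 0.28 (Phex) and -0.19 to 0.16 (Sp7). WAY-262611 differences in mutants ranged from -0.10 to 0.27 (Alpl), -0.19 to 0.11 (Col1a1), -0.11 to 0.05 (Dmp1), -0.13 to 1.18 (Ibsp), -0.13 to 0.56 (Ifitm5), -0.23 to 0.14 (Phex), -0.03 to 0.30 (Sp7) and -0.10 to 0.17 (Spp1), and in controls from -0.11 to 0.73 (Ibsp) and -0.31 to 0.11 (Phex). Where a group is left with 1 library in a set, that library is assumed to vary like the others. With Spearman in place of Pearson correlation, 5 of the 10 genes most like the bone genes were shared, and 6 of 10 with set means removed.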
